A study of Mus musculus with 14 samples.

Results

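Chromatin accessibility at 42 genes of tumour necrosis factor (TNF) and NF-kB signalling was examined in mouse haematopoietic cells by ATAC-seq, an assay that maps where a transposase can reach the DNA. A region of the deposited table (build mm10) was taken for a gene when its mean score over the 14 libraries was at least 50 and it overlapped the gene's RefSeq bounds extended by 10 kb on either side. This gave 245 regions for 42 of 42 genes, of 59189 regions that reached this mean and 705361 regions in all. This choice of regions used the mean over all libraries and no comparison between groups. The genes themselves were chosen with earlier results of these data known. Just inside that limit lay a region of Cyld with a mean score of 50.07, and just outside it a region of Zfp36 with 49.93.

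Flow sorting of recipient marrow gave 7 libraries from LT-HSC, the long-term stem cells of the blood, and 7 from MPP3, progenitors further along that lean to the myeloid lineages. Donors were C57BL/6J mice of genotype WT (Mx-Cre), Dnmt3a-flR878H/+, Npm1-frt/+ (Npm1c in the sample titles) or Dnmt3a-flR878H/+;Npm1-frt/+, called WT, Dnmt3a, Npm1 and Dnmt3a;Npm1 here. Lethally irradiated CD45.1 hosts were given 1000000 whole marrow cells, poly(I:C) 4 weeks later, tamoxifen after 4 more weeks, and were harvested 4 weeks after that. Every group, WT included, thus went through transplantation, poly(I:C), an interferon inducer that activates the Mx promoter driving Cre, and tamoxifen. The labels do not name the recombinase that tamoxifen acts on, nor say whether the sort was limited to donor cells. They also do not say that libraries A and B of a group came from separate mice, so p-values measure the spread between libraries, which may be technical. The LT-HSC Dnmt3a and MPP3 Dnmt3a;Npm1 groups held 1 library each and the other 6 groups held 2.

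TNF binds the receptors Tnfrsf1a and Tnfrsf1b, which gather adaptors, ubiquitin ligases and kinases at the membrane. These activate the IkB kinases, which mark the inhibitory IkB proteins for destruction and so free NF-kB dimers to enter the nucleus. NF-kB then turns on cytokines, survival genes and its own inhibitors, and in blood stem cells the pathway is known for roles in stress and inflammation, with myeloid progenitors more given to cytokine production.

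By role, the 42 genes were 6 ligands (Ccl3, Ccl4, Cxcl2, Il1a, Il1b and Tnf), 2 receptors (Tnfrsf1a and Tnfrsf1b), 12 receptor-proximal adaptors, ligases and kinases (Birc2, Birc3, Cflar, Map3k7, Map3k8, Ripk1, Ripk2, Tradd, Traf1, Traf2, Traf3 and Traf6), 3 IkB kinases (Chuk, Ikbkb and Ikbke), 4 IkB proteins (Nfkbia, Nfkbib, Nfkbie and Nfkbiz), 5 NF-kB subunits (Nfkb1, Nfkb2, Rel, Rela and Relb), 5 feedback inhibitors (Cyld, Tnfaip3, Tnip1, Tnip2 and Zfp36) and 5 other response genes (Cd83, Icam1, Sod2, Tnfaip2 and Tnfaip8). Each gene had 1 to 20 regions, with a median of 5. Rel and Cxcl2 had 1 region and Tnfaip8 had 20. Of the 245 regions, 144 overlapped a member gene itself. The other 101 lay within the 10 kb flanks, where 66 of them overlapped another gene, so that assignment to a member is a label of position. The Birc2 and Birc3 pair and the Ccl3 and Ccl4 pair shared 4 regions. Gene ends (within 1 kb of either bound of a protein-coding gene) made up 38.4% of member regions and 28.5% of all 59189 regions, and regions outside genes 15.9% and 28.0%. The median mean score was 108.43 in member regions and 86.14 in all.

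The starts of these genes were searched for the kappa-B sequence, which NF-kB dimers are known to bind. RefSeq (GRCm38.p6, the assembly of mm10) gave 37 start windows for 32 of the 42 genes, each from 250 bases before to 50 bases after a start. The kappa-B consensus of 10 bases, searched on both strands and allowed to overlap itself, was present in 13 of these 37 windows (35.1%) and in 4.5% of all 32851 windows of the same length. Counted by gene, it was found at 11 of 32 members (34.4%), against 5.1% of genes in the table. Member windows were also richer in G and C, with a median of 61.7% against 52.7%, and held a median of 20 CG dinucleotides against 7. The genes with a match were Cxcl2, Cyld, Map3k7, Nfkb2, Nfkbia, Nfkbie, Rel, Sod2, Tnfaip3, Tnip1 and Traf3.

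The 250 bases before the start are shown for 5 of these genes, 1 from each of the ligands and feedback inhibitors, 1 IkB protein and 2 NF-kB subunits, and for Birc2, whose start region had the lowest p of all members between genotypes and whose windows held no match. Capitals mark kappa-B matches, and sequences run 5′ to 3′ on the strand of the gene. Cxcl2 lay at chr5:90903649-90903898 on the plus strand, Nfkbia at chr12:55492648-55492897 on the minus strand, Rel at chr11:23770970-23771219 on the minus strand, Nfkb2 at chr19:46304487-46304736 on the plus strand, Tnfaip3 at chr10:19015411-19015660 on the minus strand and Birc2 at chr9:7837058-7837307 on the minus strand.
Cxcl2: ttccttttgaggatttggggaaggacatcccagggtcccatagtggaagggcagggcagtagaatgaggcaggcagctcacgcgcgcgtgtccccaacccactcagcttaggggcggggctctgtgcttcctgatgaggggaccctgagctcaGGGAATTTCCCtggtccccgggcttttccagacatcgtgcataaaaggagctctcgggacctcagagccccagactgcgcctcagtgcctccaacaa
Nfkbia: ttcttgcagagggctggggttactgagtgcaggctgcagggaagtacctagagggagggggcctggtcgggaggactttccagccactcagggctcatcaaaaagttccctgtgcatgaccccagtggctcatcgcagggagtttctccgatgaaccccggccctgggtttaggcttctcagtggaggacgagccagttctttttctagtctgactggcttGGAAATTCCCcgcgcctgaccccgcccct
Rel: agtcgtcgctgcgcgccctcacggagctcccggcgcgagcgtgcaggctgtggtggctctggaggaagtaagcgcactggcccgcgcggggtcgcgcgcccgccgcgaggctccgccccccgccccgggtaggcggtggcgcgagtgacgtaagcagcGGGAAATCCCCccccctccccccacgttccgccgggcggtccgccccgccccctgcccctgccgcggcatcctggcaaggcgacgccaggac
Nfkb2: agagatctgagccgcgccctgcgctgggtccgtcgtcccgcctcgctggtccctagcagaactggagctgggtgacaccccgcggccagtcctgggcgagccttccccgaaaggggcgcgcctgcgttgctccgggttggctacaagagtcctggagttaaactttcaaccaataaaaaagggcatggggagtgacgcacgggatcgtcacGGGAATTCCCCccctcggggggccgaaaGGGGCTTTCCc
Tnfaip3: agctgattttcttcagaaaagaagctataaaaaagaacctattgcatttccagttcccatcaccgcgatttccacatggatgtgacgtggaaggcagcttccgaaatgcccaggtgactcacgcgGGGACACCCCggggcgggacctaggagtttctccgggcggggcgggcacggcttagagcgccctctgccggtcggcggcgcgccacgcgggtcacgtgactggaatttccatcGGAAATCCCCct
Birc2: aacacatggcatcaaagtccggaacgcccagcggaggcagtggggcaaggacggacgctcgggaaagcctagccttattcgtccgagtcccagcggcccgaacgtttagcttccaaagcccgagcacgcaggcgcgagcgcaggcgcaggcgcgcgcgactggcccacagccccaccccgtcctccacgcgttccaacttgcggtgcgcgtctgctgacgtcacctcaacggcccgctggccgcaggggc
In Nfkbia, which encodes the IkB protein that holds NF-kB in the cytoplasm, the match began 29 bases before the start. In Cxcl2, a neutrophil-attracting chemokine, overlapping matches on the 2 strands began 97 and 96 bases before the start. A match is a stretch of letters and was not tested as a binding site. A region of mean score 50 or more overlapped a given start in 30 of the 32 genes. The exceptions were Il1a, where no region of the table held the start, and Il1b, where a region did so with a mean score of 14.3.

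The deposited scores are reads multiplied by 1 factor per library and rounded. The factors put 7300000 to 61300000 reads in the regions of a library. Scores were normalized between libraries by the trimmed mean of M values, and differences are of log2(normalized score + 4), which understates changes of low regions. The share of a library's summed score that fell in the 59189 tested regions, a measure of signal over background, was 29.41% and 25.49% in the LT-HSC Npm1 libraries, 31.75% and 37.12% in MPP3 Dnmt3a, and 40.57% to 63.11% in the other 10. At marker genes, the summed normalized score over 35 regions of 12 of 12 MPP3 and myeloid markers was 3460 to 5864 in LT-HSC libraries and 5197 to 7339 in MPP3 libraries. For 11 of 12 LT-HSC markers (55 regions) it was 6050 to 7831 and 5921 to 7227. Both lists overlapped between the sorted populations only through LT-HSC Npm1 libraries, which had 5864 and 5011 for myeloid and 6733 and 6050 for LT-HSC markers. In the remaining LT-HSC libraries myeloid markers reached at most 4160 and LT-HSC markers were at least 7238. Over 5 T and NK cell marker regions it was 471 to 950, over 14 of mature neutrophils and macrophages 1166 to 1720, and over 34 of niche cells 2704 to 5568, highest in MPP3 Dnmt3a B. The regions of Cd3e, Cd3g, Cd8a, Ncr1 and Ly6g did not reach a mean of 50. The median SD of the log2 score between libraries of a group was 0.4834 over member regions and 0.5412 over all.

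Accessibility per kb, in normalized score per kb averaged over 14 libraries at 1 region per gene (a region overlapping a given start, otherwise the one of highest mean), spanned 84.5 at Ccl3 to 361.4 at Traf2 among the 30 genes with a start region. The other 12 genes, among them Relb, Ripk2, Nfkb1, Nfkbiz and Cd83, were read at their region of highest mean and are not ranked against these. Among NF-kB subunits read at their starts, Rel had 278.9, Nfkb2 266.1 and Rela 242.1, and at their regions of highest mean Relb, a subunit of the non-canonical pathway, had 427.7 and Nfkb1 176.2. The IkB proteins Nfkbib (336.1) and Nfkbia (335.3) were close to each other, Nfkbiz had 265.8 and Nfkbie 133.9. Values per kb also depend on region width. The wide Nfkbie region, chr17:45554379-45559544, had a mean deposited score of 762.86, against 707.5 for Nfkbia and 452.36 for Nfkbib. The receptors had 126.8 (Tnfrsf1a) and 142.8 (Tnfrsf1b). Tnf itself had 154.4 and Cxcl2 120.7. The values of Il1a (270.0, beside Ckap2l), Ikbkb (176.2, beside Polb) and Tradd (202.6, beside B3gnt9) came from regions over those neighbours. Among adaptors, ligases and kinases start regions ran from 95.5 at Traf1 to 361.4 at Traf2, and Ripk2, a kinase of NOD receptor signalling, had 412.1 at its region of highest mean. The 11 start regions with a kappa-B match had a median of 224.6 and the 19 without one 190.1.

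**Figure D1:**
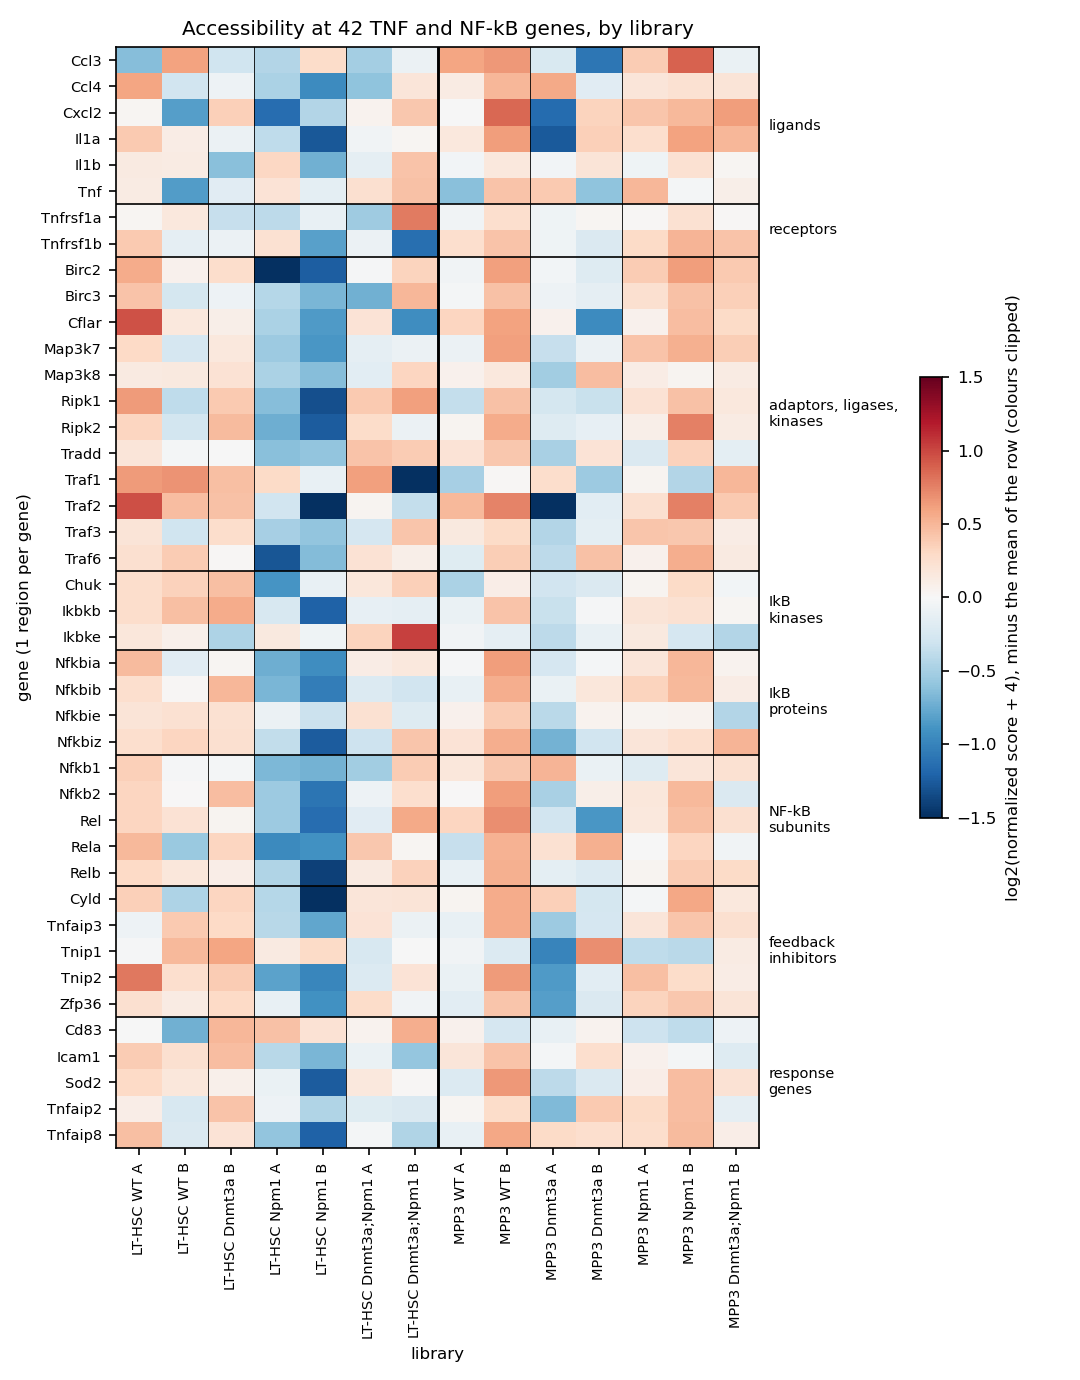
Rows are the 42 genes by role (1 region each), columns the 14 libraries, and colour is log2(normalized score + 4) minus the row's mean, clipped at both ends of the scale. Both LT-HSC Npm1 columns are blue in most rows, and Cd83 (296.3 and 254.8, against 217.8 and 130.4 in WT) is among the exceptions.

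The first comparison asks how the 2 sorted populations differ at these genes. No member region passed an adjusted p of 0.05 (limma, Benjamini-Hochberg) between MPP3 and LT-HSC averaged over genotypes, against 0.139% of all regions. At an unadjusted p under 0.05 stood 30 of 245 (12.2%), close to the 12.5% of all regions. The median difference of members was 0.09, with 148 of 245 above 0 (60.4%), and that of all regions 0.025, with 52.5% above 0. Using 1 region per gene, 36 of 42 lay above 0. Regions of high score leaned the same way in the whole table: at a mean score of 200 or more, 58 of 69 member regions (84.1%) and 73.2% of all regions were above 0.

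The lowest p among members belonged to a region 5912 bp from Zfp36 (an RNA-binding protein that destabilizes cytokine mRNA), chr7:28385140-28386926, which overlaps a bound of Med29. Its normalized score ran from 132.3 to 299.5 in LT-HSC libraries, with a median of 213.2, and from 321.6 to 446.8 in MPP3, with a median of 379.6. All 7 MPP3 libraries were above all 7 LT-HSC libraries, and the difference of 0.74 (SE 0.19) had an adjusted p of 0.113 in limma.

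Next came regions beside the interleukin 1 genes. A region 3499 bp beyond the far end of Il1b, a fever-inducing cytokine, at chr2:129360052-129361070, had 15.2 to 99.3 in LT-HSC (median 61.1) and 40.55 to 169.4 in MPP3 (median 144.5). The groups overlapped through MPP3 Dnmt3a B and MPP3 Dnmt3a;Npm1 B, and the difference was 1.31 (SE 0.34; limma adjusted p = 0.115). A region 3663 bp from Il1a, its close relative, was named after its values were seen and had 28.4 to 82.1 in LT-HSC and 70.4 to 132.4 in MPP3. The groups overlapped there too, with a difference of 1.10 (SE 0.33; limma adjusted p = 0.173).

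The far end of Nfkbia, chr12:55488279-55489477, had scores from 56.2 to 113.7 in LT-HSC (median 91.5) and from 57.4 to 263.3 in MPP3 (median 198.3). MPP3 Dnmt3a B, at 57.4, was the only MPP3 library inside the LT-HSC range, and the difference was 0.94 (SE 0.28; limma adjusted p = 0.171). At Tnf, the region over the gene body, chr17:35200120-35201550, had a median of 163.9 in LT-HSC and 271.3 in MPP3, with overlap and a difference of 0.62 (SE 0.23; limma adjusted p = 0.273). The region over the Tnf start, chr17:35201554-35202441, differed by 0.07 (SE 0.27), with 72.2 to 179.9 in LT-HSC and 84.1 to 187.4 in MPP3. The Tnf region of highest mean, at the neighbouring Ltb gene, differed by 0.03 (SE 0.21).

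In the other direction, a region 7499 bp from Tnip2, an inhibitor that binds Tnfaip3, had 49.8 to 231.7 in LT-HSC (median 75.3) and 28.65 to 92.4 in MPP3 (median 37.1), with overlap and a difference of -0.96 (SE 0.36; limma adjusted p = 0.277). An internal region of Tnip1, a second partner of Tnfaip3, had medians of 165.5 and 82.55 and a difference of -0.78 (SE 0.30; limma adjusted p = 0.283). A region 4685 bp from Tradd, the adaptor of Tnfrsf1a, at Fbxl8 and Hsf4, was the third with a difference of -0.63 (SE 0.27; limma adjusted p = 0.344). Its MPP3 scores held the low values of MPP3 Dnmt3a A (55.4) and B (21.4), and the other 5 MPP3 libraries ran from 91.7 to 155.8.

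By role, the share of regions with an unadjusted p under 0.05 was 5 of 19 for ligands, 2 of 24 for receptors, 6 of 56 for adaptors, ligases and kinases, 3 of 13 for IkB kinases, 2 of 24 for IkB proteins, 2 of 32 for NF-kB subunits, 6 of 35 for feedback inhibitors and 4 of 42 for other response genes. Median differences ran from -0.04 in IkB kinases to 0.20 in ligands. Receptor starts differed by 0.15 (SE 0.21) for Tnfrsf1a and 0.47 (SE 0.24) for Tnfrsf1b. Between the WT groups alone, no member and no region of the table passed (0.0%), with 14 members (5.71%) and 5.33% of all at an unadjusted p under 0.05 in limma. There the Il1b region had 32.4 and 68.2 in LT-HSC and 169.4 and 162.9 in MPP3, a difference of 1.73 (SE 0.61; limma adjusted p = 0.759).

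**Figure D2:**
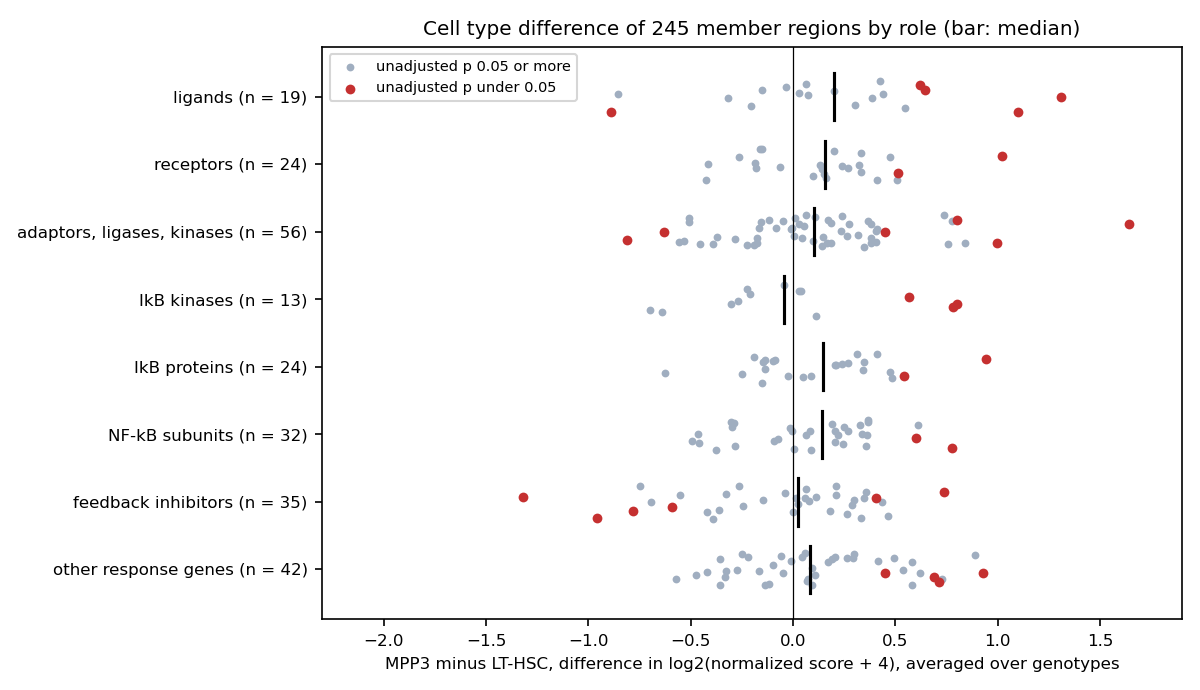
Each point is 1 of the 245 member regions, placed by its MPP3 minus LT-HSC difference in log2(normalized score + 4) and grouped by role; bars are medians and red points have an unadjusted p under 0.05. Medians lie between -0.04 and 0.20, and the points farthest to the right are Traf3 (1.64) and Il1b (1.31).

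The comparison with the most member calls was Npm1 against WT in LT-HSC. It called 10 of 245 member regions (4.08%), 8 lower and 2 higher in Npm1, against 5.91% of all regions (1.4% higher, 4.52% lower), so the members' share was not above that of the table. The share with an unadjusted p under 0.05 was 60 of 245 (24.5%) for members and 23.3% for all. The calls fell in 4 of 35 regions of feedback inhibitors, 2 of 24 of IkB proteins, 2 of 56 of adaptors, ligases and kinases, 1 of 13 of IkB kinases, 1 of 32 of NF-kB subunits and none of the 19, 24 and 42 of ligands, receptors and other response genes. By position, 6 of 94 members at gene ends were called (12.0% of all gene ends), 2 of 112 inside genes (3.46% of all) and 2 of 39 outside genes (3.53% of all). The differences followed the height of a region in members and in the whole table alike. At mean scores of 200 or more the median was -0.87 in 69 members and -0.84 in all, and below 100 it was 0.41 in 117 members and 0.44 in all. Both Npm1 libraries also had the lowest shares of score in tested regions, given above. When that share entered limma as a covariate, or when scores were scaled by cyclic loess, which removes differences that depend on height, no member region passed. With the covariate the values themselves were -1.27 at Birc2, -1.22 at an internal Tnip1 region and 3.09 before Nfkbia (all limma adjusted p of 0.687 or 0.69), and -0.64 to -0.99 at the Zfp36, Tnip2, Nfkbie, Traf2 and Relb regions, with 1.21 inside Ikbke. Under cyclic loess the values were -0.79 at Birc2, -0.78 at Tnip1, -0.94 at Traf2 and -0.54 at Tnip2. They were -0.39 and -0.18 at the Zfp36 regions, -0.07 at Nfkbie and 0.02 at Relb. The higher regions had 2.32 before Nfkbia and 2.03 inside Ikbke. A lost call alone does not give the size of a difference, and its cause was not tested. The count was 1 to 3 when LT-HSC WT A, LT-HSC WT B or LT-HSC Npm1 B was left out (2, 3 and 1 regions). Without WT A both called regions were higher, and of the 10 regions that before Nfkbia was the one still called.

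The lowest p belonged to the Birc2 start, chr9:7836234-7837700, which also lies within the flank of Birc3. Both genes encode cIAP ubiquitin ligases that act at the TNF receptor. Its normalized score was 715.5 and 506.5 in LT-HSC WT, 147.3 and 203.4 in LT-HSC Npm1, 582.3 in LT-HSC Dnmt3a, and 478.3 and 608.7 in LT-HSC Dnmt3a;Npm1. Both Npm1 libraries were far below the other 5 LT-HSC libraries, on 39 and 108 reads. The region fell by 1.77 (SE 0.34; limma adjusted p = 0.0126), and by 0.79 with an adjusted p of 0.212 under cyclic loess. In MPP3 the same region had 466.8 and 742.7 in WT and 629.8 and 751.5 in Npm1, which overlapped. Birc3's own start had 585.1 and 362.0 in LT-HSC WT and 322.8 and 268.6 in Npm1, a difference of -0.64 (SE 0.385) that did not pass (limma adjusted p = 0.333).

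Zfp36 had 2 lower regions. That at chr7:28371123-28373647 lay 3137 bp away over a bound of Plekhg2. It had 964.0 and 798.3 in WT, 331.0 and 270.6 in Npm1, and 773.3 to 782.0 in the other 3 LT-HSC libraries. It fell by 1.54 (SE 0.32; limma adjusted p = 0.0143), a value that became -0.39 under cyclic loess. The other, chr7:28380642-28383675, 1414 bp away and outside genes, was the member region of highest mean score (1271.29). It had 1254 and 1004 in WT and 481.7 and 335.8 in Npm1, and fell by 1.47 (SE 0.34; limma adjusted p = 0.0205). Under cyclic loess this value became -0.18. The region over the Zfp36 start itself had 542.3 and 499.4 in WT and 425.4 and 242.9 in Npm1 and was not called.

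Among other inhibitors of the pathway, an internal region of Tnip1, chr11:54955278-54956523, had 429.3 and 421.2 in WT against 163.9 and 122.5 in Npm1. It fell by 1.56 (SE 0.36; limma adjusted p = 0.0207), whereas the Tnip1 start had 143.7 and 204.6 against 158.9 and 177.8. The Tnip2 start had 670.9 and 460.3 against 220.1 and 193.6 and fell by 1.41 (SE 0.37; limma adjusted p = 0.03). Under cyclic loess this value became -0.54. For Tnfaip3, which encodes the ubiquitin-editing enzyme A20, the start region, chr10:19014231-19016905, had 469.3 and 650.9 in WT and 372.4 and 288.4 in Npm1. These did not overlap, but the difference of -0.75 (SE 0.34) did not pass (limma adjusted p = 0.188).

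The remaining lower regions were at Nfkbie, Traf2 and Relb. The region listed under the IkB protein gene Nfkbie lay 9026 bp away at a bound of Hsp90ab1, with 721.3 and 663.9 in WT against 326.1 and 280.5. It fell by 1.18 (SE 0.31; limma adjusted p = 0.0324), a value that became -0.07 under cyclic loess (limma adjusted p = 0.918). The start of Traf2, an adaptor that carries Birc2 and Birc3 to the receptor, had 599.6 and 423.2 against 249.9 and 90.85 and fell by 1.71 (SE 0.49; limma adjusted p = 0.0437). This call was kept in 5 of 14 fits that left out 1 library, and the value was -1.0 without LT-HSC Npm1 B (limma adjusted p = 0.397). A region at a bound of Relb, which may be its start or its far end, had 932.8 and 853.5 against 554.5 and 284.4. It fell by 1.16 (SE 0.34; limma adjusted p = 0.0476). This value became 0.02 under cyclic loess and -0.68 without LT-HSC Npm1 B, with the call kept in 7 of 14 such fits.

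Both higher regions had low scores in WT. One lay before the Nfkbia start, from 3236 to 4321 bases upstream (chr12:55495883-55496968, over the annotated Gm36634). It had 26.65 and 9.03 in WT, 170.5 and 88.9 in Npm1, 59.2 in Dnmt3a, and 56.9 and 59.4 in Dnmt3a;Npm1. Npm1 libraries were highest and WT libraries lowest of the 7, with 18 and 5 reads behind the WT values. The region rose by 2.67 (SE 0.62; limma adjusted p = 0.0213) and differed by 2.32 under cyclic loess (adjusted p = 0.12). The other was an internal region of Ikbke, an IkB kinase relative also active in interferon signalling, at chr1:131275702-131277322. It had 26.65 and 70.2 in WT and 193.7 and 183.7 in Npm1, on 18 and 38 reads in WT, and rose by 2.01 (SE 0.53; limma adjusted p = 0.0306), with 2.03 under cyclic loess (adjusted p = 0.107). In MPP3 WT these regions had 65.7 and 91.25 (Nfkbia) and 164.8 and 121.5 (Ikbke), above both LT-HSC WT libraries. Marker lists also differed between these libraries. The summed score of MPP3 and myeloid markers was 3460 and 4132 for LT-HSC WT against 5864 and 5011 for LT-HSC Npm1. That of erythroid and megakaryocyte markers (8 of 10 genes) was 8013 and 8290 against 6717 and 5362, and that of LT-HSC markers 7525 and 7831 against 6733 and 6050. The summed score of the member regions was lower too, with 47087 and 41729 against 36827 and 31978. B cell markers (6 of 8 genes) gave 1858 and 3574 against 2748 and 2733, which overlapped. The part of these lists in the calls was not tested, and neither was that of the library shares. Score in tested regions made up 56.55% and 40.66% for LT-HSC WT, against 29.41% and 25.49% for LT-HSC Npm1. Because this share differed along with genotype, the covariate and cyclic loess fits cannot tell share and genotype apart.

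**Figure D3:**
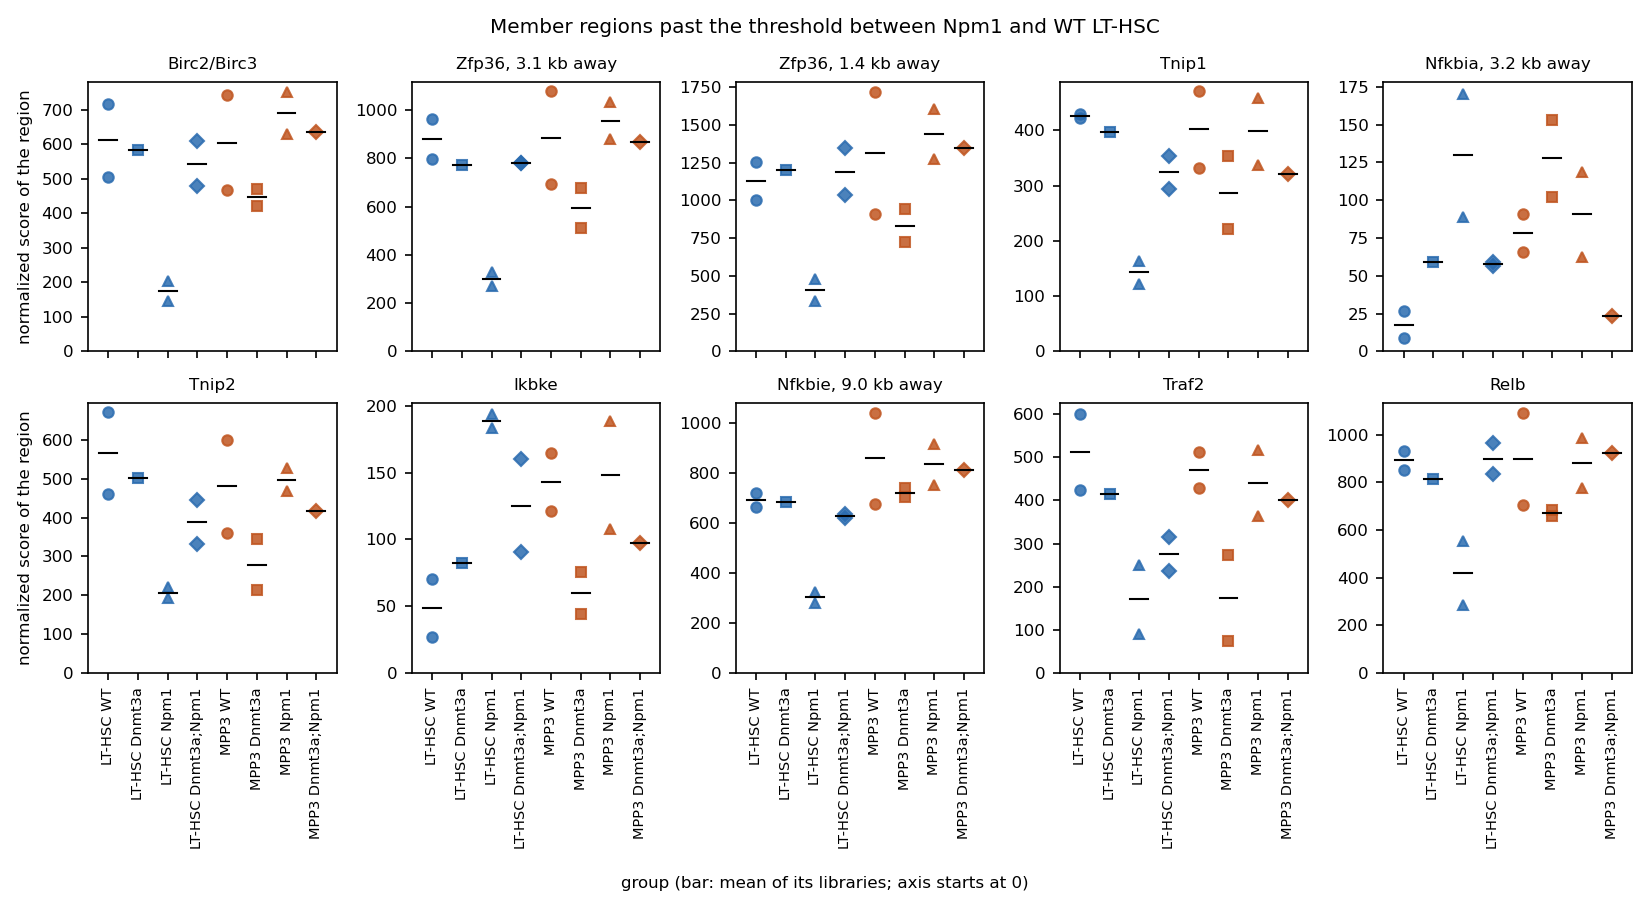
Normalized scores (linear axes from 0) of the 10 member regions called between LT-HSC Npm1 and WT, for each library by group, with LT-HSC in blue, MPP3 in orange and bars at group means. The LT-HSC Npm1 points lie below both WT points in 8 panels and above them in the Nfkbia and Ikbke panels.

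The NF-kB subunits were each read at 1 region over a start or a gene bound. Its score was lower in both Npm1 libraries than in both WT libraries, and Relb alone passed. These regions all had mean scores above 200, where only 8.68% of all regions of the table were above 0 in this comparison. Rel, the subunit prominent in lymphocytes and myeloid cells, had 870.8 and 809.3 in WT and 475.0 and 312.1 in Npm1 over its start, a difference of -1.12 (SE 0.345; limma adjusted p = 0.0562). Nfkb2 had 977.4 and 781.3 against 531.3 and 363.4, a difference of -0.985 (SE 0.336; limma adjusted p = 0.0798). Rela had 575.9 and 276.8 against 208.6 and 215.3, and Nfkb1 370.2 and 283.8 against 178.8 and 173.8, with adjusted p of 0.157 and 0.168 in limma. At the receptors, Tnfrsf1a had 498.8 and 543.6 against 372.4 and 452.3 over its start, without overlap and a limma adjusted p of 0.624, and Tnfrsf1b 237.0 and 163.5 against 211.9 and 100.7, which overlapped. The Tnf start had 143.7 and 72.2 in WT and 152.3 and 118.5 in Npm1, which overlapped. Cd83, a surface marker of activated antigen-presenting cells, was the other way round, with 217.8 and 130.4 against 296.3 and 254.8, a difference of 0.69 (SE 0.37; limma adjusted p = 0.275). With 1 region per gene, 2 of 42 were above 0, with a median of -0.86. All regions of the table with a mean score of 200 or more had a median of -0.84, though some of the 42 regions had lower mean scores. Start regions with a kappa-B match had a median of -0.75 (11 regions, 0 called) and those without one -0.80 (19 regions, 3 called).

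Among other members, Traf6, Nfkbiz and Cyld, read at 1 region each, also averaged lower in Npm1, none of them past the threshold. Member regions of lower mean score did not share this direction. Above 0 were 84 of 117 (71.8%, and 69.1% of all regions) below a mean of 100. From 100 to 200 it was 27 of 59 (45.8%, and 40.9% of all). Traf6, a ubiquitin ligase of interleukin 1 and Toll-like receptor signalling, had 226.5 and 250.7 in WT and 76.1 and 120.5 in Npm1 at its start, a difference of -1.28 (SE 0.405; limma adjusted p = 0.0618). Nfkbiz, an IkB protein of the nucleus, had 650.0 and 683.0 against 422.1 and 227.1, a difference of -1.095 (SE 0.356; limma adjusted p = 0.0675). Cyld, a deubiquitinase that removes the chains on which signalling relies, had 808.8 and 454.3 against 466.8 and 209.4, which overlapped. In all of these the higher Npm1 library still lay below the higher WT library.

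Among response genes, Icam1, an adhesion molecule of the cell surface, had 629.2 and 569.6 in WT and 360.8 and 298.2 in Npm1 (limma adjusted p = 0.109). Sod2, the superoxide dismutase of mitochondria, had 574.7 and 525.5 against 437.0 and 193.6. Tnfaip2 had 538.8 and 425.2 against 475.0 and 365.4, which overlapped. The chemokine starts were also among the overlapping ones, with 124.6 and 67.2 against 53.0 and 88.9 at Cxcl2 and 88.6 and 215.6 against 102.6 and 171.8 at Ccl3.

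**Figure D4:**
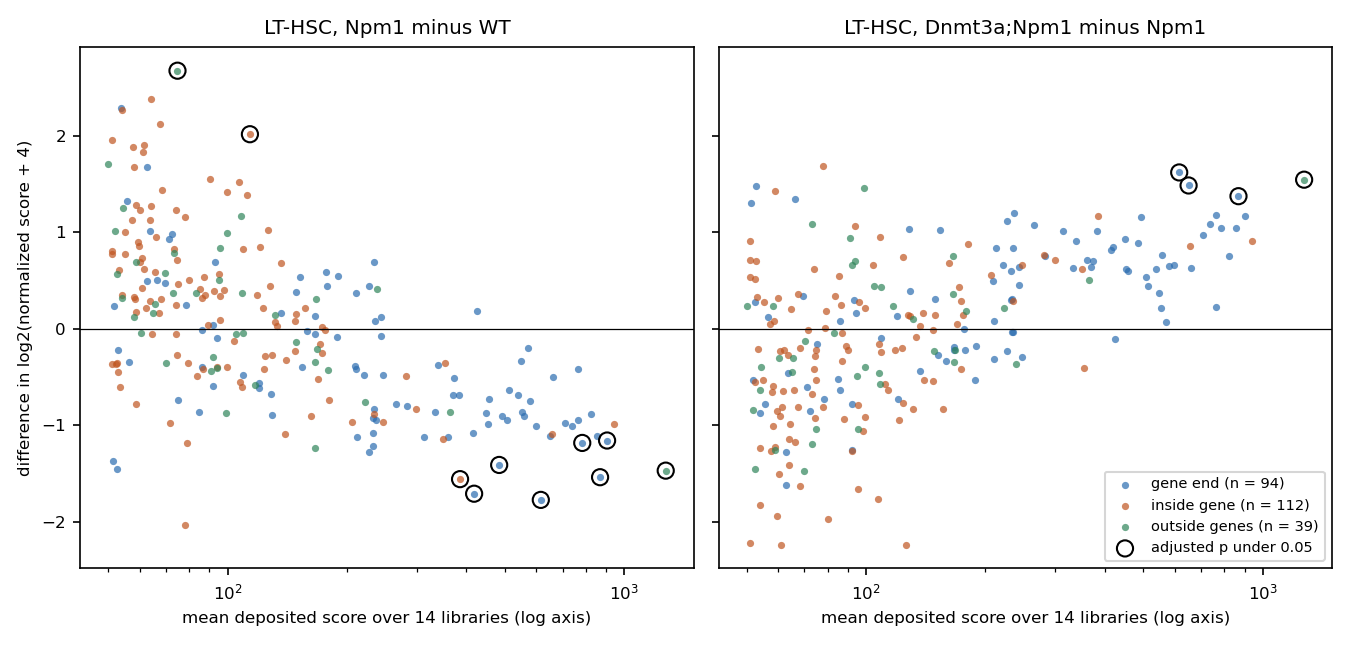
Differences of the 245 member regions in log2(normalized score + 4) against the mean deposited score (log axis), for Npm1 minus WT and Dnmt3a;Npm1 minus Npm1 in LT-HSC, coloured by position with rings at an adjusted p under 0.05. Differences fall with the mean score on the left, where the median is 0.41 below 100 and -0.87 from 200, and on the right the members from 200 have a median of 0.66.

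Adding the Dnmt3a allele to Npm1 was compared next, in LT-HSC Dnmt3a;Npm1 against LT-HSC Npm1, which shares its Npm1 libraries with the comparison above. It called 4 of 245 members (1.63%), all higher in Dnmt3a;Npm1, against 1.7% of all regions (1.5% higher, 0.204% lower), so the members' share was that of the table. At mean scores of 200 or more, 61 of 69 members (88.4%) and 89.2% of all were above 0. The Birc2 start had 478.3 and 608.7 against 147.3 and 203.4 and rose by 1.62 (SE 0.34; limma adjusted p = 0.0312). The Zfp36 region outside genes had 1347 and 1033 against 481.7 and 335.8 and rose by 1.54 (SE 0.34; limma adjusted p = 0.034), and that over Plekhg2 rose by 1.37 (SE 0.32; limma adjusted p = 0.0386). These 3 were the regions called in both comparisons. The start of Ripk1, the kinase that joins the TNF receptor to survival and death signalling, had 686.5 and 805.2 against 334.3 and 207.4 and rose by 1.48 (SE 0.38; limma adjusted p = 0.0479). LT-HSC WT at Ripk1 had 820.4 and 402.2, which enclosed both Dnmt3a;Npm1 libraries.

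The number of calls changed with single libraries left out. Without LT-HSC WT A, LT-HSC Npm1 B, LT-HSC Dnmt3a;Npm1 B or MPP3 Npm1 B none passed. Without LT-HSC WT B 1 passed, and without MPP3 Npm1 A 2. Without LT-HSC Dnmt3a;Npm1 A, 9 passed, 8 of them lower, while 2952 regions of the table did so. With cyclic loess or the covariate none passed. The regions of lowest p that were lower in Dnmt3a;Npm1 included an internal region of Cflar, the caspase-8 inhibitor cFLIP, with a difference of -1.97 (SE 0.55; limma adjusted p = 0.0625).

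In the other LT-HSC comparisons no member passed. Dnmt3a against WT rested on 1 Dnmt3a library, which limma took to vary like the other groups, and gave 6 members (2.45%) and 1.83% of all at an unadjusted p under 0.05, with 0.0% of all regions called. The median difference of members was 0.05. The smallest p belonged to a region 2937 bp from Relb at Clptm1, with 112.4 and 315.9 in WT and 61.7 in Dnmt3a (limma adjusted p = 1.0). Dnmt3a;Npm1 against WT gave 8 members (3.27%) and 7.15% of all at an unadjusted p under 0.05, with 0.00338% of all called. There the Nfkbia upstream region differed by 1.64 (SE 0.62) and the internal Ikbke region by 1.38 (SE 0.53), both with a limma adjusted p of 0.611.

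In MPP3 no member passed in any genotype comparison. Npm1 against WT had 0 members with an unadjusted p under 0.05 in limma, and 0.115% of all regions, with 0.0% called. The Birc2 start, lower in LT-HSC Npm1, thus had overlapping values here. The test of the difference between the cell types' Npm1 effects was 2.00 (SE 0.49; limma adjusted p = 0.312) for Birc2, 1.68 (SE 0.45) for Zfp36 over Plekhg2 with the same adjusted p, and -2.52 (SE 0.88; limma adjusted p = 0.329) for the Nfkbia upstream region. No member and no region of the table (0.0%) passed that test, with 27 members (11.0%) and 11.1% of all at an unadjusted p under 0.05. Dnmt3a;Npm1 against WT, on 1 Dnmt3a;Npm1 library, had 1 member (0.408%) and 0.478% of all at an unadjusted p under 0.05, with 0.0% called.

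Dnmt3a against WT in MPP3 had 24 members (9.8%) and 10.1% of all at an unadjusted p under 0.05 in limma, with 0.0% called. The region 4685 bp from Tradd had 155.6 and 141.7 in WT and 55.4 and 21.4 in Dnmt3a, a difference of -1.97 (SE 0.485; limma adjusted p = 0.272). A region 4984 bp from Tnfrsf1a within Plekhg6 had 168.3 and 146.4 against 18.45 and 87.85, on 5 reads at the lowest, a difference of -1.83 (SE 0.51; limma adjusted p = 0.311). The Traf2 start had 428.8 and 513.0 against 73.8 and 272.6, a difference of -1.69 (SE 0.49; limma adjusted p = 0.335). These Dnmt3a libraries also had low shares of score in tested regions (31.75% and 37.12%), and 11 of 69 members and 18.3% of all regions with a mean score of 200 or more were above 0. Npm1 against Dnmt3a, which shares those libraries, had 27 members (11.0%) and 10.9% of all at an unadjusted p under 0.05, with 0.00845% of all and no member called. The Dnmt3a effect did not pass as different between cell types at any member (0.0% of all called; 13 members, 5.31%, and 4.71% of all at an unadjusted p under 0.05).

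The regions of Nfkbia show both kinds of difference side by side. Over the start, chr12:55491462-55493284, LT-HSC WT had 817.5 and 521.5 and Npm1 352.6 and 306.1, a difference of -0.98 (SE 0.335; limma adjusted p = 0.0799). Further upstream, between 3236 and 4321 bases before the start, the Npm1 libraries were above WT, as given above. A region nearer the start, 2235 to 2839 bases before it, had 84.6 and 9.03 in WT and 18.2 and 57.3 in Npm1, which overlapped. Towards the far end of the gene, MPP3 libraries other than MPP3 Dnmt3a B were above all LT-HSC libraries.

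**Figure D5:**
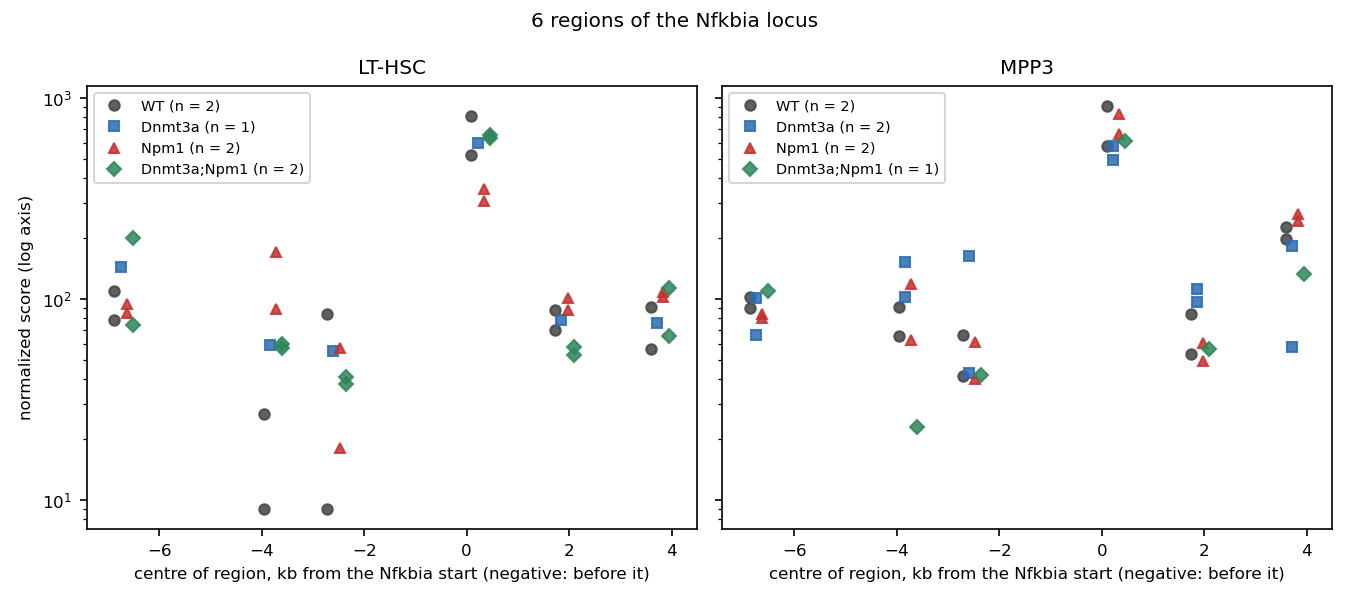
Normalized scores (log axis) of the 6 Nfkbia regions by the distance of their centre from the gene's start (points of a genotype are offset sideways), with symbols and colours for genotypes in LT-HSC (left) and MPP3 (right). In LT-HSC the Npm1 points are lowest at the start region (352.6 and 306.1) and highest about 4 kb before it (170.5 and 88.9).

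A list of 40 other pathway genes, with 178 regions, was examined in the same way. In LT-HSC Npm1 against WT, 16 of its regions passed, 13 lower and 3 higher (8.99%, against 5.91% of all regions). Of these 16, 12 lay at gene ends, where 12.0% of all regions were called. How many of the 178 regions lie at gene ends was not counted, so the list's share there is not known. With the covariate no region of the table passed (limma; 3957 at an unadjusted p under 0.05). Lower regions lay in the 10 kb flanks of Tirap and Myd88, adaptors of Toll-like receptors, and outside the genes themselves. Others overlapped Rnf31 and Rbck1, subunits of the linear ubiquitin ligase, and Map3k14, the NF-kB inducing kinase. The region in the flank of Tirap, chr9:35175205-35176389, fell by 1.85 (SE 0.37; limma adjusted p = 0.0129). That of Map3k14 fell by 1.95 (SE 0.44; limma adjusted p = 0.0189). Among the higher regions, that of Bcl3, an IkB family member, rose by 3.05 (SE 0.71; limma adjusted p = 0.0213). In Dnmt3a;Npm1 against Npm1, 6 passed, all higher (3.37%, against 1.7% of all). No region of this list passed in the other 10 comparisons in limma, and between the cell types 18 of 178 (10.1%) had an unadjusted p under 0.05, against 12.5% of all.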

How the data were processed

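The 14 ATAC-seq libraries came as 1 table of whole-number scores for 705361 regions of mm10. Tools named in the submitters' processing notes, without their roles, are R 3.6.0, HOMER 4.10, edgeR 3.26.4 and DiffBind 2.12.0. Aligner, peak caller and scale factors: not given in the sources used here. Because low values in the deposited scores lie on rounded multiples of 1 step per library, the authors' values are rescaled counts, and no count test was used. Steps under 1 merge several reads into 1 value in 6 libraries, so reads are approximate there.

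Regions with a mean of at least 50 were scaled by the trimmed mean of M values and limma 3.58.1 (R 4.3.3) was fitted to log2(score + 4) in 8 groups, with a robust, trended prior. A call needed an adjusted p under 0.05 (two-sided, Benjamini-Hochberg) over the 59189 regions of a comparison, in each of 12 comparisons. A group of 1 library takes its spread from the other groups. Simulated scores with known changes were used to test the fitting code. Gene bounds and start windows came from RefSeq GRCm38.p6.

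Named regions were those called (at most 10, by smallest p), with fewer than 5 calls also the 3 of smallest p in each direction, and the main region of 12 core genes such as Tnf and Nfkbia. Others were named after their values were seen. Members, lists and tests were chosen with earlier results of these data known. The labels do not say that equal letters pair libraries. Correlations of A minus B between groups ran from -0.295 to 0.067 apart from 0.431 for MPP3 WT with MPP3 Npm1. They do not settle whether letters pair libraries, and no pairing was used. Alternatives were another filter, scaling, pseudocount, covariate, replicate block, region choice and leaving out each library.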

Additional observations from a re-analysis of the deposited data

How the results depend on the processing

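For Npm1 against WT in LT-HSC, the 10 calls became 22 at a mean score of at least 100 (1 higher, 21 lower, of 128), 43 when scaled to library totals (1 higher, 42 lower), 0 with cyclic loess, 0 with the share of score in tested regions as a covariate, 6 of 144 for regions overlapping unextended gene bounds and 4 of 62 within 1 kb of a member gene's end. Library totals moved the median of all regions from 0.008 to -0.574. The Relb region reversed to 0.022 with cyclic loess. For Dnmt3a;Npm1 against Npm1, the 4 calls became 13 at a mean of at least 100, 7 with no filter, 0 with cyclic loess, 0 with the covariate, 2 for unextended bounds and 2 within 1 kb. Scaling to library totals gave 1 call each between cell types, for Dnmt3a against WT and for Npm1 against Dnmt3a in MPP3. With the letters A and B as a replicate block, the counts were 8 and 2 for the LT-HSC comparisons above. Leaving out each library gave 1 to 13 and 0 to 9 for these, 0 to 2 between cell types over all genotypes (2 without MPP3 Dnmt3a B), 0 to 1 for LT-HSC Dnmt3a;Npm1 against WT (1 without Dnmt3a;Npm1 A), and 0 to 4 for MPP3 Dnmt3a against WT and for MPP3 Npm1 against Dnmt3a (4 without Dnmt3a B, 1 without Dnmt3a A). Over all regions, Npm1 against WT gave 3501 calls, 8905 with library totals, 5331 at a mean of at least 100, 108 with cyclic loess and 0 with the covariate (3957 at an unadjusted p under 0.05, limma). Dnmt3a;Npm1 against Npm1 gave 1007, and 1645, 3122, 1 and 0 in that order, 1638 with no filter and 416 with the replicate block. The cause of these changes was not tested. Groups held 1 or 2 libraries, and 5 to 38 reads lay behind the WT values of the Nfkbia and Ikbke regions called higher, which limits their precision. The smallest difference that this design can detect was not estimated.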
